A study of Homo sapiens with 3 samples.

Results

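The genes described here are interferon-stimulated antiviral genes and genes of class I antigen presentation, measured in Caco-2 cells after depletion of OCC-1. Members were all probe sets whose only gene symbol in the array annotation was on a list of 51 genes. The list matched 144 of 49395 probe sets and 49 of 18132 genes, 35 antiviral and 14 of antigen presentation. STAT2 and USP18 had no probe set with a single symbol and were not analysed here. Of the 49 genes 33 had a brightest probe set above an intensity of 184, the median of all probe sets averaged over the arrays, and 16 lay below it.

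Caco-2 cells come from a human colon tumour and are an established model of gut epithelium. The 3 arrays held total RNA of line 1 (hairpin shOCC-1-1), line 2 (hairpin shOCC-1-2) and a control with the non-target hairpin shCTRL, with 1 array each. All 3, the control included, had been transduced with a short hairpin RNA lentivirus, grown with 20% serum, selected for 5 days in 1 µg per ml puromycin, and harvested after 24 hours free of the drug. OCC-1 (gene symbol C12orf75) had an intensity of 518 in line 1 and 397 in line 2, against 1219 in the control. Array medians were 182.5 in line 1, 183.6 in line 2 and 185.5 in the control, and precision is limited by there being only 3 arrays. In such bulk RNA, fewer cells with a transcript and less transcript per cell cannot be told apart.

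Interferons bind receptors at the cell surface, and Janus kinases then phosphorylate STAT proteins. Phosphorylated STAT proteins join IRF9 in the complex ISGF3, which binds the interferon-stimulated response element (ISRE) in the promoters of antiviral genes. Interferon gamma raises class I antigen presentation, in which the proteasome cuts proteins into peptides, the TAP transporter carries these into the endoplasmic reticulum, and HLA heavy chains with beta-2-microglobulin display them on the cell surface. Gut epithelium expresses many of these genes at a basal level.

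Most members lay slightly below control, by less than 1.5-fold, and a few lay above it. A rule of size asked for a difference of 1.5-fold or more in each line, with the same sign. By it 0 of the 33 members above the filter were higher, where 1.36% of 11329 genes were, and 0 were lower, where 0.159% were. In limma, which sets the 2 knockdown arrays against the control across all 11329 genes, PSMB8, ISG15 and IRF9 fell at an adjusted p of 0.05 or less. These 3 lower members are 9.09% of 33, against 3.06% of all genes, and 0 members were higher in limma, against 9.63%. At an unadjusted limma p under 0.05, 13 members were lower (39.4%, against 12.9% of all genes) and 1, PARP14, was higher (3.03%, against 17.9%). At 1.2-fold or more in each line the same 3 genes were lower (all genes 3.33%) and 0 were higher (all genes 9.89%). By direction alone 25 of 33 members were lower in both lines (75.8%, against 45.7% of all genes) and 5 were higher in both (all genes 36.5%). The median log2 difference of the members was -0.12 in line 1 and -0.17 in line 2, where that of all genes was -0.03 and -0.02. Both lines share 1 control array, so that a deviation of that array alone would appear in both. The fit assumes that the lone control varies like the knockdown arrays, with 1 residual degree of freedom. With quantile normalization limma called 10 of the 33 members lower instead of 3, and with all genes kept 10 of 49. Calls over all genes went up too. Quantile normalization gave 1143 higher and 789 lower of 11328 genes, and keeping all 18132 genes gave 1495 higher and 713 lower, where the deposited scale with the filter gave 1091 and 347.

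**Figure D1:**
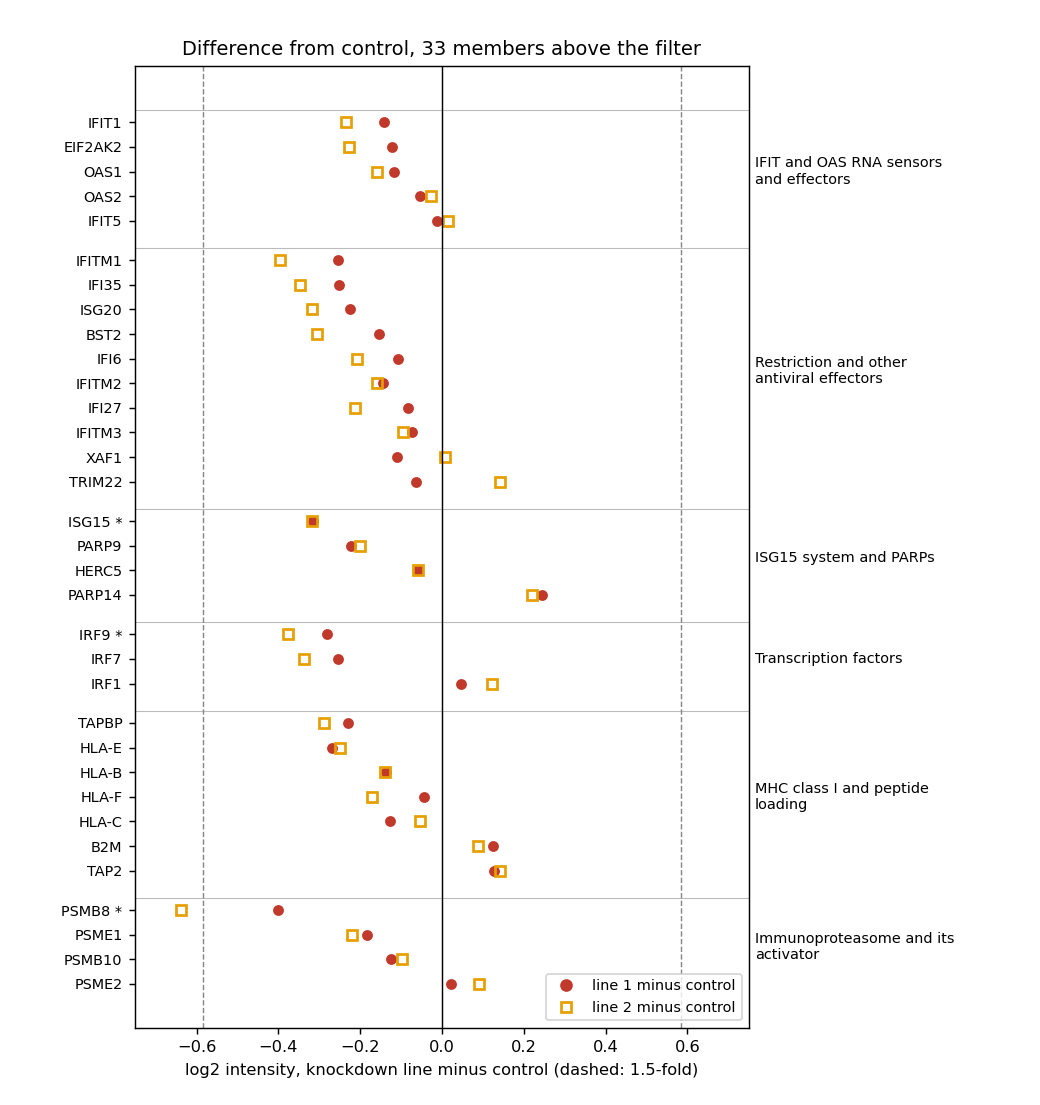
Log2 intensity difference from control (x axis) of the 33 members above the filter, with line 1 as filled circles and line 2 as open squares, grouped by role. An asterisk marks an adjusted p of 0.05 or less in limma. PSMB8, ISG15 and IRF9 carry one, and the dashed 1.5-fold lines are passed by PSMB8 in line 2 only.

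The arrays also differed along the base composition of probes. The 23 background control probe sets, which have no target and whose names give their content of G and C bases, ranged from 0.06 to -0.37 (log2 difference from control) in line 1 and from 0.04 to -0.23 in line 2. In each line 16 of the 23 were below control, namely those with 10 or more such bases. The medians of the members lay inside these ranges. The base composition of the members' probes was not used here, and the part of this gradient in their differences was not tested.

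**Figure D2:**
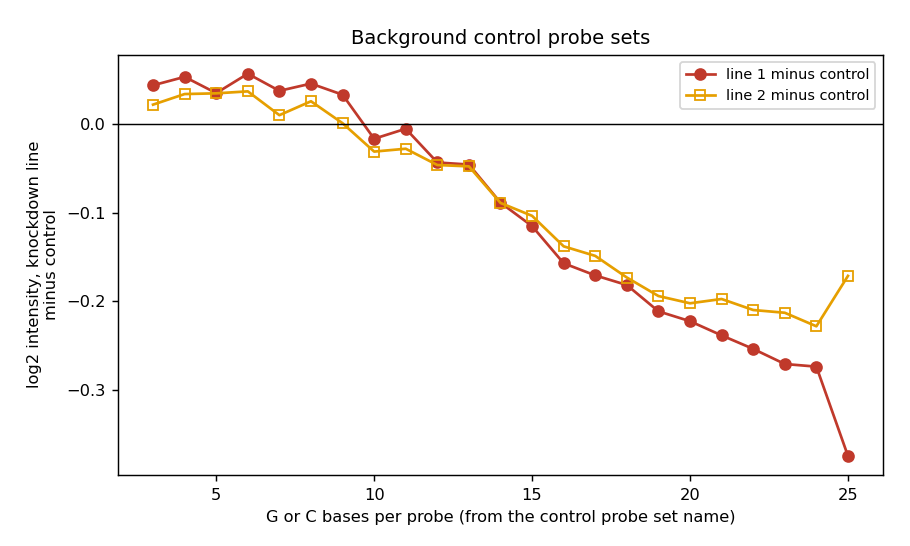
Log2 intensity difference from control (y axis) of the 23 background control probe sets against the probes' content of G and C bases (x axis, bases), with line 1 as filled circles and line 2 as open squares. Values sit just above 0 at the left and reach -0.37 in line 1 and -0.23 in line 2 with many such bases.

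Promoters of 42 of the 51 listed genes were found in RefSeq (build GRCh38.p14), as windows from 250 bases before to 50 after the gene start. The core of the ISRE, a pair of GAAA motifs with any 2 bases between them, was searched on both strands. It was present in 30 of the 42 (71.4%), against 3.65% of 27305 promoters of the same length. The list was chosen for interferon-stimulated genes, so a high share follows from that choice and is no result of these arrays. By role the share was 73.3% of 30 antiviral and 66.7% of 12 antigen presentation promoters. The letters TTCNNNGAA, the GAS element bound by STAT dimers, read the same on both strands in their fixed bases and were in 9 of the 42 (21.4%, all promoters 7.88%). All 9 were antiviral genes. Matches of the 2 motifs can overlap, and a match is a description of letters only. The following 4 promoters are shown because their genes carry the results, ISG15, IRF9 and PSMB8 as the lower members in limma and B2M for its 7 probe sets, all higher. Capitals mark the ISRE core, where overlapping matches run together.
ISG15 promoter (chr1:1013247-1013546, plus strand): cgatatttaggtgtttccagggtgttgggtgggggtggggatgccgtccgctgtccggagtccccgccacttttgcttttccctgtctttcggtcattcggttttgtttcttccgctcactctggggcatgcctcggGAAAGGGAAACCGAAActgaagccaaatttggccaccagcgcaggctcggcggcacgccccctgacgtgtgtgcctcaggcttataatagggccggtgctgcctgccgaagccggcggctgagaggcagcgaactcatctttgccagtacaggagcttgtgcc
IRF9 promoter (chr14:24161015-24161314, plus strand): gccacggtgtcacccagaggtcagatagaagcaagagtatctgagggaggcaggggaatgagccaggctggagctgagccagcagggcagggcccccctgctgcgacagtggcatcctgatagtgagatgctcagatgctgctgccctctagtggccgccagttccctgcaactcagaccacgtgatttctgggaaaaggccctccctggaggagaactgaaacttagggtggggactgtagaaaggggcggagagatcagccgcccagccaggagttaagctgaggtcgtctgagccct
PSMB8 promoter (chr6:32844630-32844929, minus strand): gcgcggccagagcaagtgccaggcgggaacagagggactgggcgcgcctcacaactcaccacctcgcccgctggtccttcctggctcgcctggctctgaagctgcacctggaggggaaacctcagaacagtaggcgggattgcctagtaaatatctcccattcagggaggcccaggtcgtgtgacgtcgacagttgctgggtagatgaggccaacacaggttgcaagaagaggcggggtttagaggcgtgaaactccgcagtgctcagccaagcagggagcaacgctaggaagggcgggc
B2M promoter (chr15:44711267-44711566, plus strand): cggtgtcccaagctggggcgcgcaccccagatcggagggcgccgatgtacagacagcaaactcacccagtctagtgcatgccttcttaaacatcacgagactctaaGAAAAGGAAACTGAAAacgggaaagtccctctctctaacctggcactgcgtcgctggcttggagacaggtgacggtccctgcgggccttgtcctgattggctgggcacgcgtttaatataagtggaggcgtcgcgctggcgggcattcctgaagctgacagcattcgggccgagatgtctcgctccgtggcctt
ISG15 and B2M, which differed from control in opposite directions, each hold 2 overlapping ISRE cores, at 113 and 144 bases before the gene start for the outer match. IRF9 and PSMB8 hold none in this window. Among members above the filter with a promoter found, the median log2 difference was -0.15 over 19 genes with an ISRE core and -0.14 over 9 without one. Both sets held genes above and below control, and members without a promoter, such as IRF7 and HLA-E, are left out.

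The transcription factors had the lowest median of the groups, -0.26 in line 1 and -0.34 in line 2 over 3 genes. IRF9, the DNA-binding subunit of ISGF3, had an intensity of 402 in line 1 and 376 in line 2, against 488 in the control. Both lines lay below the control, with a log2 difference of -0.33 ± 0.08 (SE, limma adjusted p = 0.042). Its other 2 probe sets above the filter were lower too, at -0.23 and -0.20 in line 1 and -0.21 and -0.29 in line 2. When each gene was read by the average over its probe sets, IRF9 no longer passed (limma adjusted p = 0.059). IRF7, which drives the interferon alpha genes, read 559 and 528 in lines 1 and 2, against 667 in the control. Its log2 difference of -0.30 ± 0.08 (SE) just missed the threshold (limma adjusted p = 0.053). IRF1, a factor of the interferon gamma response, did not follow them, with 201 and 212 in lines 1 and 2 and 194 in the control.

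ISG15 is a ubiquitin-like protein that is attached to other proteins by a cascade ending in HERC5, its main ligase. It read 514 in line 1 and 513 in line 2, against 640 in the control. The knockdown arrays were nearly equal and both below control, at 80.4% and 80.3% of it (log2 difference -0.32 ± 0.07 SE, limma adjusted p = 0.036). Only 1 probe set reads ISG15. HERC5 showed little difference, with 276 in both lines and 287 in the control. The ADP-ribosyltransferase family members PARP9 and PARP14 lay on opposite sides of the control by their brightest probe sets. PARP9 read 243 and 247 in lines 1 and 2, against 284 in the control, and PARP14 380 and 373, against 320. Neither passed limma (adjusted p = 0.11 and 0.085), and for PARP14 the other 2 probe sets above the filter were lower in both lines, down to -0.15 and -0.19. For PARP9 the other probe set above the filter lay near control, at 0.001 in line 1 and -0.02 in line 2 (log2). A dimmer PARP9 probe set below the filter was higher, at 0.15 and 0.19.

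Among RNA sensors and effectors 5 of 11 genes were above the filter, and 0 passed limma in either direction, with 1, IFIT1, lower at an unadjusted p under 0.05 (20.0%, against 12.9% of all genes). IFIT1, which binds viral RNA with foreign ends, read 210 in line 1 and 198 in line 2, against 232 in the control (log2 -0.14 and -0.23). EIF2AK2, the kinase PKR that halts translation upon double-stranded RNA, read 812 and 755, against 884 in the control. Both genes were below control in both lines by less than 1.2-fold. OAS1 and OAS2 make the oligoadenylates that activate RNase L. OAS1 read 247 and 240 in lines 1 and 2, against 268 in the control, and OAS2 read 284 and 290, against 295. IFIT5 lay at control level, with 265 and 270 in lines 1 and 2 and 267 in the control. The 6 dim genes IFIT2, IFIT3, OAS3, OASL, IFIH1 and DDX60 had intensities from 67.0 to 170.3 and log2 differences between -0.18 and 0.16.

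The restriction factors and other antiviral effectors had medians of -0.13 in line 1 and -0.21 in line 2 over 10 of 16 genes. Of these 0 passed limma and 4 were lower at an unadjusted p under 0.05 (40.0%, against 12.9% of all genes). BST2 (tetherin), which holds budding virus at the cell surface, read 3031 in line 1 and 2730 in line 2, against 3372 in the control. Its probe sets differed, since another above the filter read 2129 and 1844 in lines 1 and 2, against 1809 in the control. The IFITM proteins block fusion of viral envelopes, and their 3 genes stand next to each other on chromosome 11. IFITM1 read 382 and 346 in lines 1 and 2, against 455 in the control, and its other probe set 287 and 255, against 351. It missed the threshold with a log2 difference of -0.32 ± 0.09 (SE, limma adjusted p = 0.055). IFITM2 had differences of -0.14 and -0.16 and IFITM3 of -0.07 and -0.10, and probes may not separate these close paralogs. IFI35, which binds the interferon-induced protein NMI, read 473 and 442, against 563 in the control (log2 -0.30 ± 0.08 SE, limma adjusted p = 0.055). ISG20, an exonuclease of single-stranded RNA, read 287 and 269, against 336 in the control. IFI6 had log2 differences of -0.11 in line 1 and -0.21 in line 2, and IFI27 of -0.08 and -0.21, without a call. For XAF1 and TRIM22 line 2 lay above the control and line 1 below it. MX1, a dynamin-like antiviral GTPase, lay just outside the filter, at 171 and 158 in lines 1 and 2 and 191 in the control. IFI44, IFI44L, SAMD9, GBP1 and the chemokine gene CXCL10 were dimmer, between 83.6 and 149 on all arrays.

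**Figure D3:**
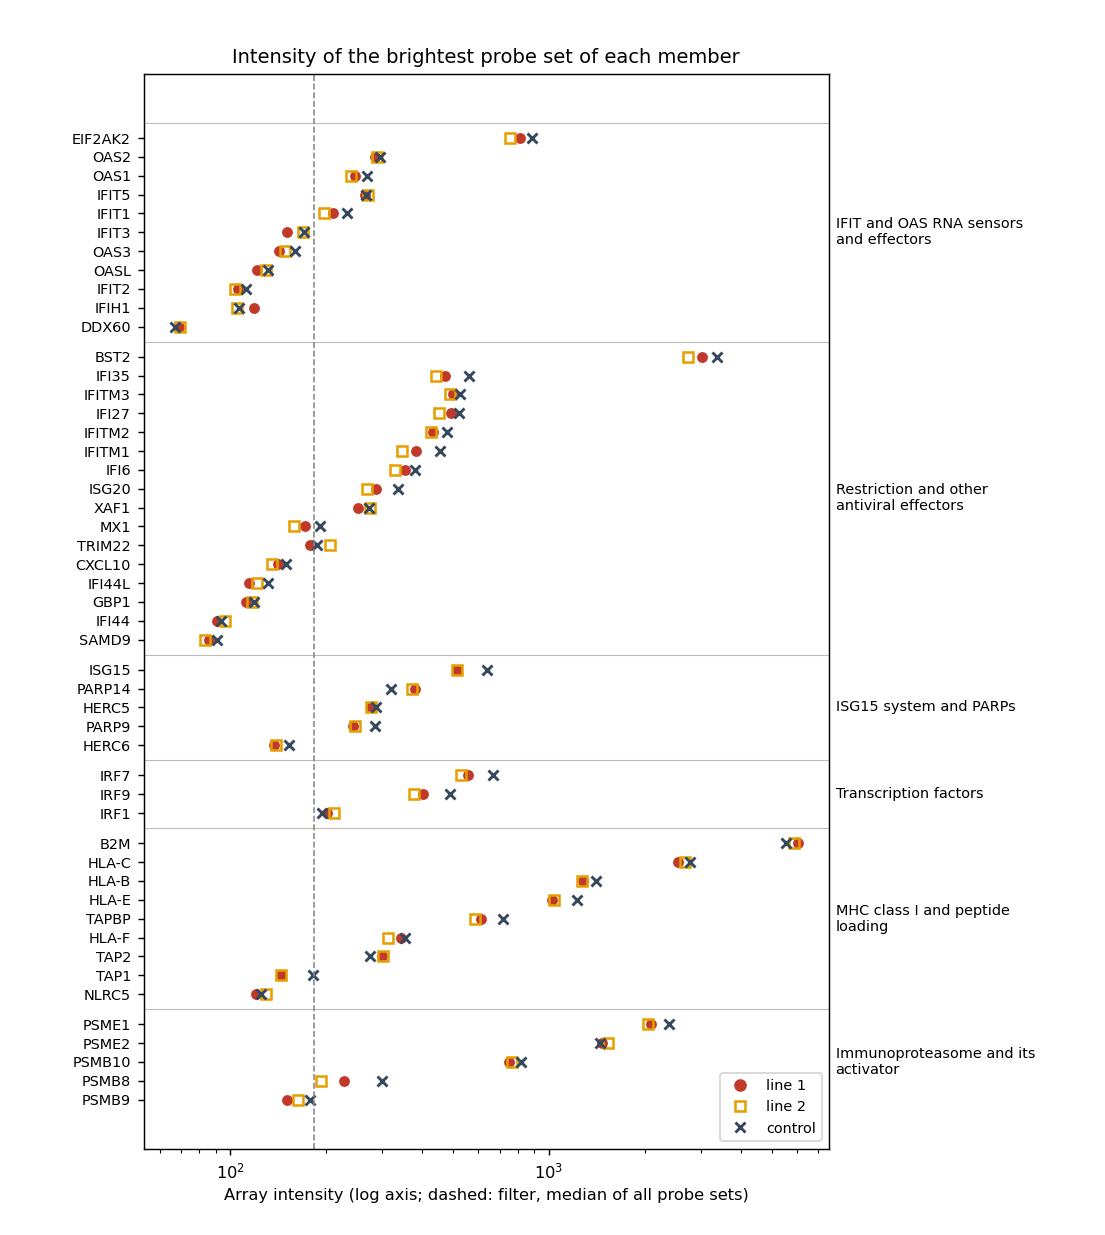
Array intensity (x axis, log scale) of the brightest probe set of each of 49 members in line 1 (filled circles), line 2 (open squares) and the control (crosses), grouped by role. The dashed line is the filter at 184. Intensities span 67.0 to 6026, and MX1 lies just below the filter.

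PSMB8 had the largest difference of all members. It encodes the immunoproteasome subunit that takes the place of PSMB5 and read 228 in line 1 and 193 in line 2, against 300.3 in the control. Both lines were below the control, at 75.8% and 64.2% of it (log2 difference -0.52 ± 0.11 SE, limma adjusted p = 0.025). The lines were also farther apart for PSMB8 than for any other member above the filter, by 0.24 on the log2 scale. Its other 2 probe sets lay below the filter with smaller differences, -0.20 and -0.06 in line 1 and -0.29 and -0.01 in line 2. Read by the average over its probe sets, PSMB8 itself dropped below the filter. PSMB9, which takes the place of PSMB6, was dim at 151 and 163 in lines 1 and 2 and 177 in the control. PSMB10, which takes the place of PSMB7, read 749 and 763, against 817 in the control, and all 3 of its probe sets were lower in both lines. PSME1 and PSME2 encode the subunits of the proteasome activator PA28. PSME1 read 2090 and 2039, against 2375 in the control, with all 3 probe sets lower, and PSME2 read 1463 and 1535, against 1441. These partners lay on opposite sides of the control, without a call in limma for either (adjusted p = 0.12 and 0.66).

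The constitutive subunits PSMB5, PSMB6 and PSMB7 and the other proteasome activators PSME3 and PSME4 are no members. They were lower in both lines in 5 of 5 cases, where 45.7% of all genes were. PSMB5 fell in limma, with 2669 and 2731 in lines 1 and 2, against 3320 in the control (log2 difference -0.30 ± 0.07 SE, adjusted p = 0.044). That is 1 of 5 called lower, against 3.06% of all genes. PSME3 was at -0.22 and -0.44 and PSME4 at -0.16 and -0.23 (log2), without a call. The medians of these 5 genes were -0.16 and -0.23, and those of the 4 immunoproteasome and PA28 genes above the filter -0.15 and -0.16.

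B2M, the light chain shared by all class I molecules, stood on the other side of the control from most heavy chains. Its brightest probe set read 6026 in line 1 and 5879 in line 2, against 5526 in the control, which limma did not call (log2 difference 0.11 ± 0.07 SE, adjusted p = 0.37). B2M had 7 probe sets with values of their own, all higher in both lines, by 0.12 to 0.53 in line 1 and 0.06 to 0.48 in line 2 (log2). The largest difference was in a probe set that read 3137 and 3031 in lines 1 and 2, against 2168 in the control. When limma was run on the 24645 probe sets above the filter, 4 of the 7 rose (all probe sets 11.4%). The 7 are repeated readings of the same gene on the same arrays and are not independent. Their share therefore cannot be weighed against that of all probe sets. With the mean of its probe sets B2M rose by 0.28 (limma adjusted p = 0.037), and after cyclic loess its brightest probe set stood at 0.03.

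Among the heavy chains HLA-E, a ligand of natural killer cell receptors, had the largest difference, with 1019 and 1033 in lines 1 and 2, against 1228 in the control (log2 -0.26 ± 0.07 SE, limma adjusted p = 0.064). Of its 6 probe sets 5 were lower in both lines. HLA-B read 1274 and 1271 in lines 1 and 2, against 1400.0 in the control, and HLA-C read 2536 and 2668, against 2768. HLA-C is mixed, since a dimmer probe set read 240.1 and 248.9, against 207.5 in the control. HLA-F read 342 and 313, against 353 in the control, and of its 5 probe sets above the filter 4 were lower in both lines and 1 was higher. HLA genes are close in sequence and highly variable, and probes may not separate them.

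Of the loading genes, TAPBP (tapasin), which bridges TAP and class I molecules, read 612 and 587 in lines 1 and 2, against 718 in the control, and its 3 probe sets above the filter were all lower. The log2 difference was -0.26 ± 0.08 (SE), not called in limma (adjusted p = 0.069). TAP1 and TAP2 form the peptide transporter. TAP1 lay below the filter, with 144.4 in line 1 and 144.3 in line 2, against 181.5 in the control (log2 -0.33 in both). TAP2 read 299 and 302, against 274 in the control, while its other 2 probe sets above the filter were lower in both lines. TAP2, PSMB8, TAP1 and PSMB9 follow each other on chromosome 6 with 0 protein-coding genes between, and their brightest probe sets include the lowest and the highest difference among antigen presentation members above the filter. NLRC5, the activator of class I genes, was dim, at 121 and 129 in lines 1 and 2 and 125 in the control.

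**Figure D4:**
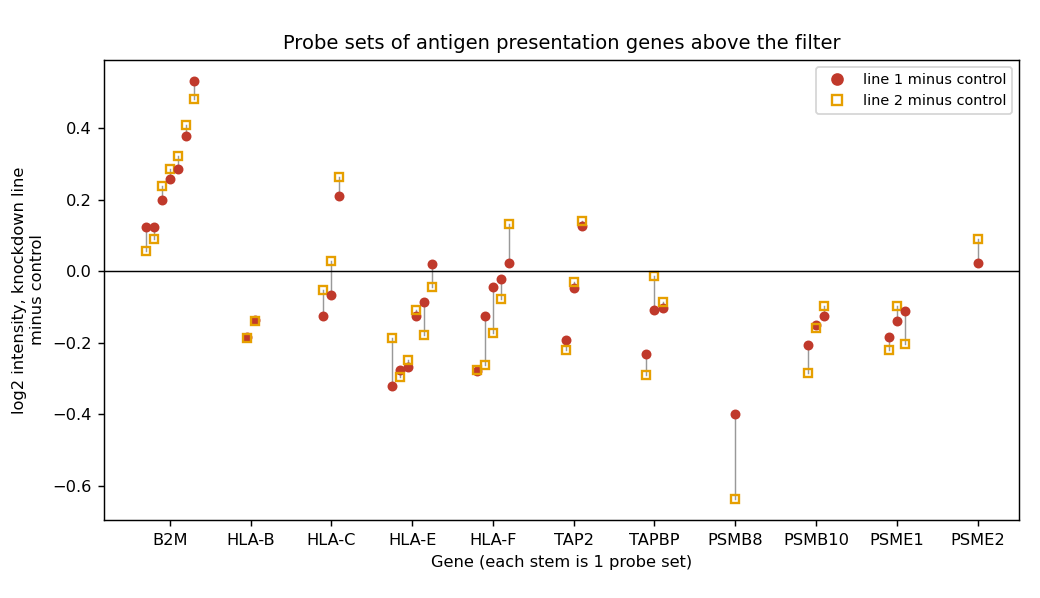
Log2 intensity difference from control (y axis) of each distinct probe set that passed the filter, for 11 antigen presentation genes (x axis), with line 1 as filled circles and line 2 as open squares on 1 stem per probe set. All 7 B2M probe sets lie above 0, while all of HLA-B, TAPBP, PSMB8, PSMB10 and PSME1 lie below it.

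Over all member probe sets counted once where values were identical, 72 of 143 passed the filter. Of these 52 were lower in both lines (72.2%, all probe sets 44.6%) and 14 were higher in both (19.4%, all probe sets 37.8%), and 7 of the 14 belonged to B2M. Unlike the members, all probe sets here keep identical values and those with several symbols or none. Probe sets of the same gene are repeated readings of it, so shares of probe sets do not count separate genes. Of 37 antigen presentation probe sets 24 were lower in both lines (64.9%) and 11 higher (29.7%). Without B2M, whose probe sets were all higher, 24 of 30 were lower in both lines and 4 higher. The larger share follows from leaving out a gene by its direction, and no lower gene was left out likewise. The antiviral genes had 28 of 35 lower and 3 higher. Of 19 members with more than 1 probe set above the filter, 11 had all of them lower, 1 (B2M) had all higher, and 7 were mixed. The same tally over all genes was not made. In limma on probe sets 9 of the 72 fell (all probe sets 3.96%), 2 of them from IFITM1 and the others from PSMB8, HLA-E, HLA-F, ISG15, IFI35, IRF7 and IRF9.

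Upstream genes of the pathway, chosen as lists with earlier results known, are given by counts. Of 13 receptor and JAK-STAT genes above the filter 0 passed limma, with 1 higher (7.69%, against 17.9% of all genes) and 1 lower (7.69%, against 12.9%) at an unadjusted p under 0.05, and 4 were lower in both lines (30.8%, against 45.7%). Their medians were -0.04 in line 1 and 0.04 in line 2. The kinase JAK1 read 591 and 582 in lines 1 and 2, against 706 in the control, and the receptor subunit IFNAR1 read 291 and 275, against 247. Of 10 sensing and induction genes 0 passed, with 1 higher (10.0%) and 0 lower at that p, and medians were -0.11 and -0.10. By direction 7 of the 10 were lower in both lines (70.0%, against 45.7% of all genes) and 2 were higher in both (all genes 36.5%). The adaptor MYD88 read 507 and 509, against 433 in the control. The 6 interferon genes with a probe set, IFNB1, IFNG and IFNL1 among them, were all below the filter, with intensities from 65.9 to 167.5 on the 3 arrays. The background controls covered that range of intensities.

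Of 13 other interferon-stimulated genes above the filter TRIM5, a retroviral restriction factor, rose in limma, with 771 and 784 in lines 1 and 2, against 637 in the control (log2 difference 0.29 ± 0.07 SE, adjusted p = 0.048). No other gene of that list passed, so that 1 of 13 was called higher, where 9.63% of all genes were. IFI30, a lysosomal thiol reductase, read 1747 and 1450, against 2042 in the control, and LGALS3BP, a secreted glycoprotein, 379 and 330, against 448. The list's medians were 0.03 and -0.08. By direction 6 of the 13 were lower in both lines (46.2%, against 45.7% of all genes) and 4 were higher in both (all genes 36.5%). At an unadjusted p under 0.05 in limma 2 were higher (15.4%, against 17.9% of all genes) and 2 lower (15.4%, against 12.9%). Of 6 genes of class I assembly 0 passed limma, and 0 did at an unadjusted p under 0.05, with medians of 0.04 and -0.01. Only 1 of the 6 was lower in both lines (16.7%, against 45.7% of all genes) and 2 were higher in both (all genes 36.5%). Of 7 class II genes RFXAP, a subunit of a promoter-binding complex, rose with 313 and 298, against 234 in the control (log2 difference 0.38 ± 0.08 SE, limma adjusted p = 0.024). That is 1 of 7 called higher, against 9.63% of all genes. The other 6 were lower in both lines without a call (85.7% of 7, against 45.7% of all genes).

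**Figure D5:**
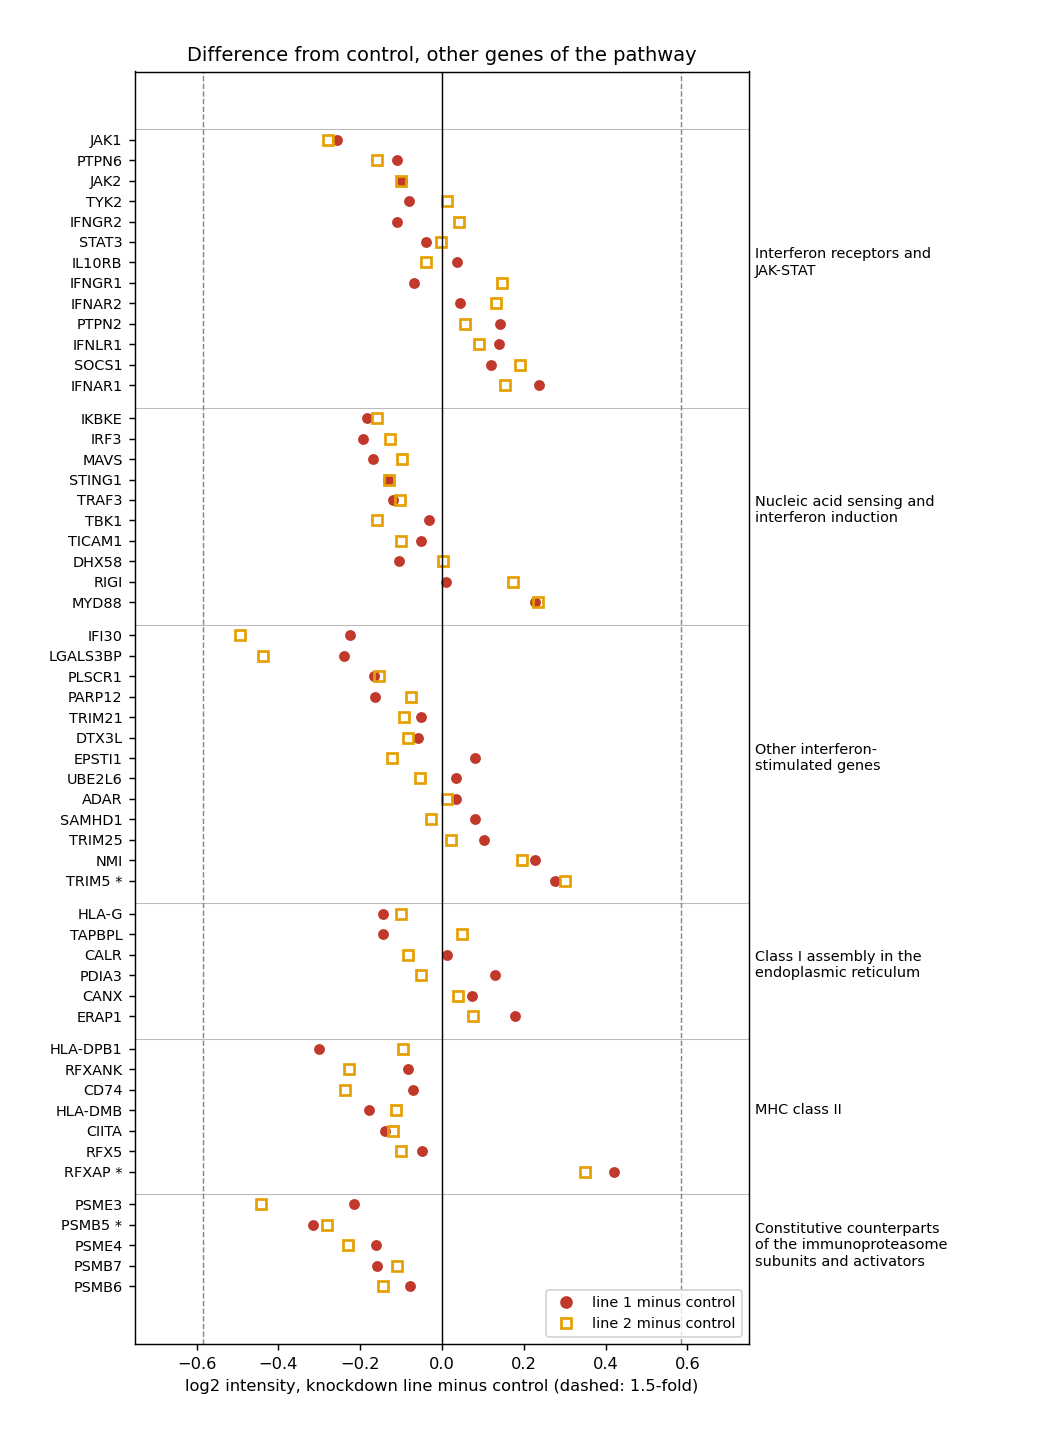
Log2 intensity difference from control (x axis) of other pathway genes above the filter, with line 1 as filled circles and line 2 as open squares, grouped by list. An asterisk marks an adjusted p of 0.05 or less in limma. TRIM5 and RFXAP carry one above 0 and PSMB5 below it.

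The label of the cells was checked against markers. Epithelial genes were bright, such as the keratin KRT18 with 9553 and 10026 in lines 1 and 2 and 10002 in the control, and EPCAM with 5602 and 5911, against 3930. Of 10 epithelial markers 9 passed the filter, of which EPCAM and CDH1 rose in limma (adjusted p = 0.0090 and 0.021) and 7 did not pass. Over all genes 9.63% were called higher. The marker below the filter was LGALS4, at 129 and 141 in lines 1 and 2 and 156 in the control. The leukocyte gene PTPRC was dim, at 77.2 and 80.1 in lines 1 and 2 and 75.5 in the control. Of 7 leukocyte markers with a probe set 3 passed the filter. The sum of the 7 was 1771 in line 1, 1612 in line 2 and 1456 in the control, of which LYZ, also an epithelial gene, made up 740, 606 and 381. LYZ rose in limma (log2 difference 0.81 ± 0.12 SE, adjusted p = 0.010), as 1 of the 3 leukocyte markers above the filter (all genes 9.63%). Plasmacytoid dendritic cell markers, the cells known for high interferon output, were below the filter, and 2 genes summed to 207 and 212 in lines 1 and 2 and 222 in the control. Of 5 fibroblast and 4 endothelial markers with a probe set, 2 and 1 passed the filter, and 0 passed limma at an adjusted or an unadjusted p of 0.05. The part of other cells in the members' values was not tested.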

How the data were processed

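The deposited table holds an intensity for each probe set on each array, on a linear scale. RMA is named in the submitters' processing notes without version or settings; scaling and background handling are not given in the sources used here. The intensities were converted to log2 with no further normalization. The platform annotation gave 1 symbol for 44988 probe sets, several for 1832 and none for 2473, and 102 were array controls; RefSeq (GRCh38.p14) changed 0 of the symbols it could look up. Each gene was read by its brightest probe set, and 11329 genes with a mean log2 of at least 7.52 were tested.

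The model in limma 3.58.1 under R 4.3.3 (eBayes, Benjamini-Hochberg over all 11329 genes) set 2 knockdown arrays against 1 control, two-sided, with 6.96 total degrees of freedom. Nothing in the labels describes repeated cultures, so the p-values do not cover variation between cultures. They set the mean difference from 1 control array against a variance drawn largely from all genes, with 1 residual degree of freedom. Scripts were tested on simulated data. Alternatives changed the probe set choice, filter, scaling, background, fold threshold or variance model.

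Members and lists were chosen with earlier results of these data known. By rule, full values were given for members called in limma or at least 1.2-fold from control in both lines, and for up to 3 others per role by level; of other pathway lists up to 3 genes were named by size of difference. Values of further members were added after they were seen. Tables and figures were made in Python 3.11.15 with numpy 2.4.6, pandas 2.3.3 and matplotlib 3.10.9.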

Additional observations from a re-analysis of the deposited data

How the results depend on the processing

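No paired analysis was possible because the control is a single array. The count of members lower in limma was 3 of 33 on the deposited scale. Without the filter it was 10 of 49, with TAP1, untested on the deposited scale, among the 10. Of 33 members it was 10 with quantile normalization, 6 with cyclic loess, 5 with a trended and robust variance model and 6 with every probe set tested. Lower calls over all genes or probe sets went up alongside, with 347 of 11329 on the deposited scale, 713 of 18132 without the filter, 789 of 11328 with quantile normalization, 471 of 11329 with cyclic loess, 448 of 11329 with the variance model and 977 of 24645 probe sets. Averaging probe sets gave 3 of the 25 members then above the filter (all genes 316 of 9481). Of these ISG15 alone was among the original 3, and the others were IFITM1 and IRF7. IRF9 missed the threshold and PSMB8 was below the filter. Members higher in limma numbered 0, and 1 with averaged probe sets (B2M) and 1 with cyclic loess (PARP14). By size 0 members were lower, and 1 (PSMB8) at 1.3-fold. Leaving out 1 knockdown line gave 0 to 1 lower by size, PSMB8 in line 2 alone, and a median of -0.14 to -0.13 for antigen presentation members. With both lines, read as the median of each gene's mean difference, it was -0.11. The SD between the 2 line medians was 0.0093. The median was -0.12 without the filter, -0.15 with quantile normalization and -0.13 with cyclic loess. The antiviral median was -0.15 over both lines, with an SD of 0.059 between the 2 line medians. With changed processing it moved by less than that SD. Leaving out a line gave -0.20 without line 1 and -0.12 without line 2. The SD cannot judge these shifts, since the same 2 lines set it, and it leaves out variation of the control array. Signs turned for HLA-C (0.042) and TAP2 (-0.036) with averaged probe sets. Leaving out a line turned IFIT5 (-0.013, without line 2) and XAF1 (0.0073, without line 1), and TRIM22 ranged from -0.065 without line 2 to 0.14 without line 1. None of these 5 was called, and the cause was not tested. Adjusted p in limma over the alternatives with a value ranged over 0.0014 to 0.024 for PSMB8, 0.014 to 0.037 for ISG15, 0.013 to 0.059 for IRF9, 0.037 to 0.83 for B2M and 0.0496 to 0.0926 for PARP14. Background limits the 16 members below the filter, but it is not confined to them. Background control probe sets rich in G and C bases also lay above the filter. The highest read 1780 in line 1, 2049 in line 2 and 2307 in the control. PSMB8, ISG15 and IRF9 lay within the intensity range of these controls on all arrays. The part of background in the members' values was not tested, and no test of either line by itself was made.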

Other observations

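Some probe sets read several members or a member with near copies and were left out of all counts. The probe set shared by USP18, which removes ISG15 from proteins, and its relatives read 193 in line 1 and 198 in line 2, against 189 in the control. The pair shared by OAS2 and OAS3 read 491 and 500.5 in lines 1 and 2, against 422 in the control, and 150.1 in both lines, against 137. These were above the control, whereas the probe sets of OAS3 alone and the brightest of OAS2 alone were below it in both lines. The probe set shared by HLA-B and HLA-C read 402 and 414, against 439 in the control.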
